A study of Sus scrofa with 9 samples.

Results

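GABRP encodes the pi subunit of the GABA-A receptor, and its level was read on 9 Affymetrix PorGene 1.0 ST arrays of pig esophagus, each holding total RNA of 1 sample. The gene was chosen by its large rise over squamous tissue in these same arrays, so its levels against squamous tissue are given as a description and are not tested. It is 1 of 12217 genes with a named probe set, and 2 probe sets carry GABRP as their only symbol. Both held equal values on every array, so they count as 1 measurement, and the gene carries NCBI gene number 100525792.

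All samples came from control pigs and no group carried a genetic change. The squamous group held the lining over the glands of pigs 37, 39 and 40, and the ESMG group held the esophageal submucosal glands of the same 3 animals, which secrete mucus and fluid under that lining. The spheroid group held 3 cultures labelled pig 1, 2 and 3, grown from such glands in growth factor reduced Matrigel under Advanced DMEM/F12 medium with 10 mM HEPES, B27, N2 and 50 ng/ml recombinant human EGF, the epidermal growth factor. No label links these pig numbers to the tissue donors, or states the age of the animals or cultures. Group, growth in culture and RNA kit (a Universal Mini kit for both tissues, a Micro kit for spheroids) cannot be told apart in any comparison with spheroids.

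GABA-A receptors are chloride channels of 5 subunits that open when gamma-aminobutyric acid (GABA) binds, and belong with the glycine, nicotinic and serotonin receptors to the Cys-loop family. In most neurons chloride flows in through them and quiets the cell, whereas the direction in other cells depends on how much chloride cotransporters have loaded. The pi subunit is known for its presence outside the nervous system, in glandular epithelia such as breast, salivary gland and uterus, and it assembles with alpha and beta subunits.

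Levels are log2 RMA values, on which a step of 1 stands for a 2-fold change, and array medians lay between 6.84 and 7.04. The lower quartile of each array lay between 5.36 and 5.65. Without a detection call, a level in that range does not show that a transcript was missing. The number of arrays, 3 per group, limits the precision.

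The GABRP level was lowest in squamous tissue, higher in glands and highest in spheroids. On the squamous arrays its level was 7.65 in pig 37, 5.30 in pig 39 and 6.18 in pig 40, a mean of 6.38 ± 1.19 (SD, n = 3). In ESMG it was 9.06, 9.19 and 9.11 in the same pigs, a mean of 9.12 ± 0.07 (SD, n = 3). In spheroids it was 12.16, 12.22 and 12.69, a mean of 12.35 ± 0.29 (SD, n = 3). The groups did not overlap: the lowest ESMG array lay 1.41 above the highest squamous array, and the lowest spheroid array 2.97 above the highest ESMG array. The squamous array of pig 39 lay under the lower quartile of all arrays, the other 8 above it.

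**Figure D1:**
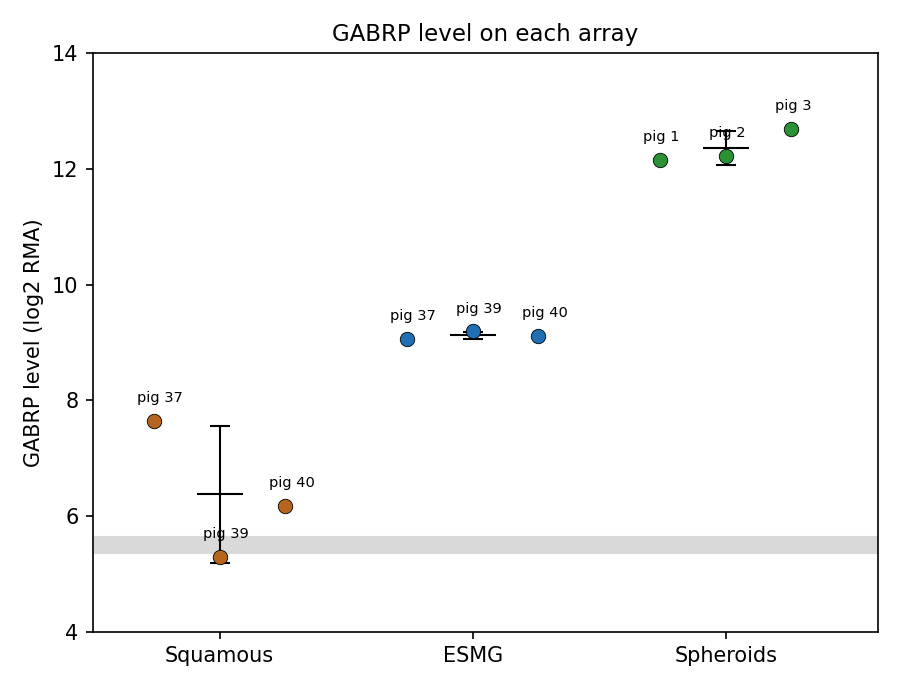
GABRP level (log2 RMA, vertical axis) on each of the 9 arrays by group; points are arrays labelled by pig, horizontal bars are group means, whiskers are 1 SD (n = 3), and the grey band spans the lower quartiles of the arrays (5.36 to 5.65). ESMG arrays sit close together at 9.06 to 9.19, spheroids lie at 12.16 to 12.69, and squamous arrays spread from 5.30 to 7.65.

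The mean in ESMG was 2.74 above that in squamous tissue (SE 0.43, a 6.70-fold difference). Pig by pig, ESMG exceeded squamous tissue by 1.41 in pig 37, 3.89 in pig 39 and 2.93 in pig 40, so all 3 animals showed the same direction and the size followed the squamous array. The mean in spheroids was 5.98 above squamous tissue (SE 0.43, 63.0-fold). Of the 12217 genes 2 had a larger rise and 6 a larger fall in that comparison, and in ESMG over squamous tissue 46 had a larger rise and 0 a larger fall. These counts describe the measure that chose the gene.

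The comparison of spheroids with ESMG was not used by the choice, although its arrays also enter both comparisons that were. GABRP was 3.23 higher in spheroids (SE 0.43, 9.40-fold; limma, adjusted p = 0.000112 over all genes). Of all genes 19 had a larger rise and 115 a larger fall, and 7.99% were called higher in that comparison, a call being an adjusted p under 0.05 with at least a 2-fold change. An exact two-sided permutation test over the 6 arrays gave p = 0.10, the smallest that 3 arrays against 3 can reach. The SE rests on a spread pooled over the 3 groups, most of which came from the squamous arrays: with only the ESMG and spheroid arrays in the fit it was 0.17.

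The size over squamous tissue depended on which squamous arrays were read. Without the squamous array of pig 37 the log2 difference was 3.38 for ESMG and 6.61 for spheroids. Without that of pig 39 it was 2.21 and 5.44, and with arrays weighted by quality it was 1.93 and 5.01. On the squamous arrays the SD of GABRP was larger than that of 99.9% of genes, against 9.41% on ESMG arrays and 83.6% on spheroid arrays.

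Other genes with the order of GABRP on the squamous arrays, highest in pig 37 and lowest in pig 39, came from several marker lists. AGR2, a folding factor of mucin-producing cells, read 8.27, 5.24 and 6.03 on the squamous arrays of pigs 37, 39 and 40, and CLCA1, a protein secreted by mucous cells, read 9.56, 6.32 and 7.06. Both had their high and low arrays where GABRP had its own. That order was followed by 6 of 16 measured mucous and serous markers, 6 of 10 smooth muscle, 5 of 12 fibroblast and 4 of 11 leukocyte markers. It was also followed by 3 of 8 endothelial, 1 of 10 nerve and glia, 1 of 7 plasma cell and 0 of 7 squamous markers. Of all 12217 genes 1574 followed it. The mean level of the mucous and serous markers was 8.31 on the squamous array of pig 37 and 7.15 and 7.09 on those of pigs 39 and 40, and none lay under the lower quartile on all squamous arrays. The part of these cell types in the spread of GABRP was not tested.

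The mucous and serous markers were also read on the ESMG arrays. Of the 16 markers 14 were lowest on the ESMG array of pig 40, and their mean level was 9.85 there against 10.67 and 10.53 in pigs 37 and 39. GABRP lay within 0.13 on the 3 ESMG arrays, with pig 40 between the others. So GABRP did not drop with the mean of these markers on the ESMG array of pig 40. Any relation of GABRP to these cells in ESMG was not tested, and 3 arrays are few.

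The labelled tissues were checked against defining markers. The mucous and serous list was called higher in ESMG than squamous tissue for 11 of 16 members and lower for none, against 2.65% and 0.409% of all genes. The ESMG arrays also held squamous markers. The mean level of the 7 measured was 10.41 to 11.01 in ESMG and 11.25 to 11.40 in squamous tissue. The squamous-layer protein CRNN read 12.15, 12.12 and 12.54 on the ESMG arrays. The squamous arrays in turn held smooth muscle and fibroblast markers. The mean of 10 smooth muscle markers was 10.54 to 10.88 there and 9.43 to 10.20 in ESMG. Of these 10, 4 were called lower in ESMG and none higher (0.409% and 2.65% of all genes). Fibroblast markers had a mean of 11.1 to 11.5 in squamous tissue. In spheroids, 11 of 12 fibroblast markers were called lower than in ESMG (8.91% of all genes were), and their mean level was 7.28 to 7.93 in spheroids and 11.18 to 11.49 in ESMG. In spheroids the squamous markers had a mean of 9.53 to 9.65 and the mucous and serous markers one of 8.27 to 8.37. These means average unlike differences. Of the 7 squamous markers 4 were called lower than in ESMG and 1, BNC1, higher by 4.30. Of the 16 mucous and serous markers 9 were called lower, none higher and 7 not. Over all genes 8.91% were called lower and 7.99% higher. In bulk RNA of this kind, fewer cells of a type and less RNA per cell cannot be told apart, and the part of tissue makeup in the higher GABRP level of spheroids was not tested.

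Of 19 GABA-A subunit genes 8 were measured, and by limma none of the 7 besides GABRP was called in any comparison. In spheroids against squamous tissue the calls over all genes came to 8.61% higher and 8.05% lower; the shares for the other comparisons are given above. The median of the 7 was -0.04 in ESMG over squamous tissue, -0.02 in spheroids over ESMG and -0.04 in spheroids over squamous tissue, against -0.06, 0.09 and 0.03 over all genes. The other 7 lay between 2.96 and 5.72 on all 9 arrays, with GABRB2, GABRG1, GABRE, GABRQ and GABRR1 under the lower quartile of every array, GABRA5 under it on 8 arrays and GABRR2 on 3. GABRA5 and GABRB2 are alpha and beta subunits, the kinds that form the GABA site between them; GABRG1, GABRE and GABRQ are the gamma, epsilon and theta kinds, and GABRR1 and GABRR2 the rho kind. Alpha and beta genes other than GABRA5 and GABRB2 were not analysed here.

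GABRA5 read 5.55, 5.54 and 5.72 on squamous arrays, 5.21, 5.16 and 5.31 on ESMG arrays and 4.98, 5.10 and 4.93 on spheroid arrays. GABRB2 read 4.54, 4.39 and 4.20, then 3.77, 4.03 and 4.12, then 3.73, 3.88 and 3.69. For both genes the spheroid arrays were the lowest on average, where those of GABRP were the highest, and the squamous and spheroid arrays did not overlap. Against squamous tissue, spheroids were 0.60 lower for GABRA5 (SE 0.13, limma adjusted p = 0.00257) and 0.61 lower for GABRB2 (SE 0.15, limma adjusted p = 0.00607), both under the 2-fold minimum. The other 5 subunits differed by at most 0.34 in any comparison. By limma 2, 0 and 2 of the 7 had an unadjusted p under 0.05 in ESMG against squamous tissue, spheroids against ESMG and spheroids against squamous tissue.

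**Figure D2:**
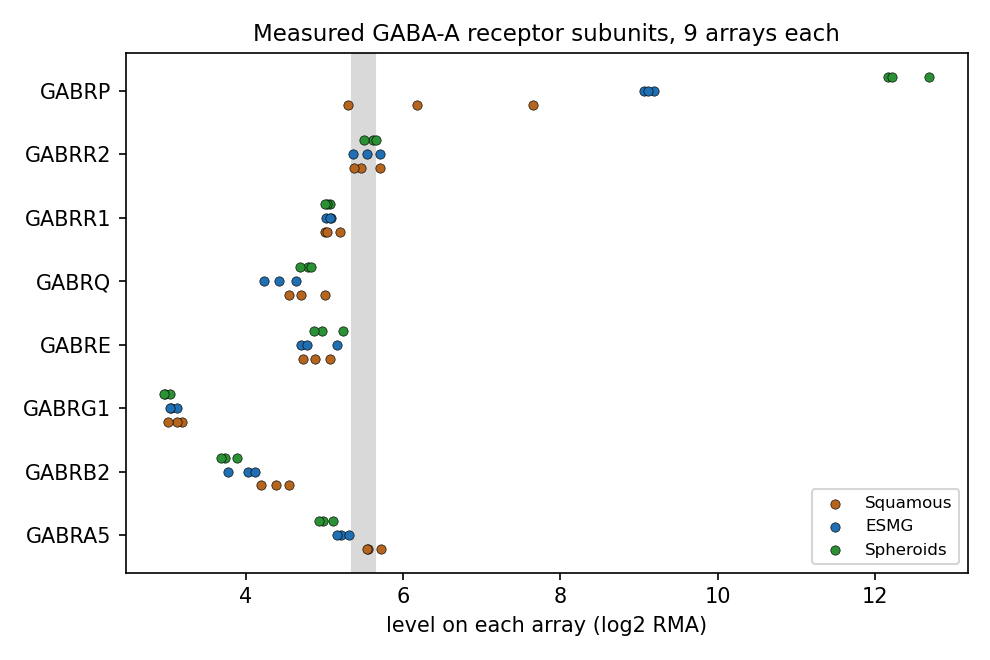
Level (log2 RMA, horizontal axis) of the 8 measured GABA-A receptor subunits on the 9 arrays, coloured by group; the grey band spans the lower quartiles of the arrays. GABRP spreads from 5.30 to 12.69 in the order squamous, ESMG, spheroids, while the other 7 stay between 2.96 and 5.72.

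Genes that make, carry and break down GABA were next, with the GABA-B receptor. Of 22 listed 12 were measured. In spheroids 2 were called lower than in ESMG and none higher, against 8.91% and 7.99% of all genes. The list median was 0.00 against 0.09 over all genes. ABAT, the transaminase that degrades GABA, read 8.55, 8.53 and 8.71 in ESMG and 5.80, 6.09 and 5.97 in spheroids, which do not overlap. It fell by 2.64 (SE 0.15, 6.25-fold; limma adjusted p = 1.73e-07). MAOA, which oxidises monoamines, read 9.45, 9.44 and 9.17 in ESMG and 6.17, 7.10 and 7.29 in spheroids and fell by 2.5 (SE 0.25, 5.65-fold; limma adjusted p = 1.49e-05). The same 2 genes were called lower against squamous tissue: ABAT read 9.27, 8.90 and 9.08 there and MAOA 9.76, 9.39 and 9.36. Fibroblast and other stromal markers fell in the same arrays, and their part in these falls was not tested.

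Neither gene was called between the tissues, and no member of that list was (limma; unadjusted p under 0.05 for 2 higher and 1 lower). The GABA-B subunit GABBR1, picked out after its values were seen, read 8.11, 7.78 and 7.79 in squamous tissue, 8.37, 8.55 and 8.34 in ESMG and 8.35, 8.26 and 8.50 in spheroids. Its difference of 0.53 between the tissues was not called (SE 0.14, limma adjusted p = 0.0540). GLUL, another member of the list outside the naming rule, was 0.66 higher in ESMG (SE 0.16, limma adjusted p = 0.0300), under the 2-fold minimum. GAD2, 1 of the enzymes that make GABA and also outside the naming rule, read 5.28 to 5.64 over all 9 arrays without a call in any comparison, and GAD1 was not analysed here.

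Of 23 genes of GABA-A receptor assembly, trafficking and anchoring 18 were measured. In spheroids against ESMG 4 were higher and 4 lower at an adjusted p under 0.05 by limma, as were 41.5% of all genes in either direction, and 1 of the 18 also passed 2-fold. GABARAPL1, a relative of the receptor-binding protein GABARAP, was 11.10, 11.44 and 11.37 in ESMG and 9.86, 10.03 and 10.06 in spheroids, without overlap. It fell by 1.32 (SE 0.14, 2.5-fold; limma adjusted p = 2.52e-05) and was that member. Against squamous tissue 3 were higher and 3 lower in spheroids at an adjusted p under 0.05, where 40.9% of all genes passed. EMC6, part of the complex that inserts membrane proteins, was called higher in spheroids than in squamous tissue by 1.13 (SE 0.13, limma adjusted p = 4.59e-05). That call was lost after quantile normalization (0.94) and cyclic loess (0.91), which leave it under 2-fold. No member of this list was called between ESMG and squamous tissue by limma, where 2 were higher and 1 lower at an unadjusted p under 0.05. GABARAPL1 was 0.76 higher in ESMG (SE 0.14, limma adjusted p = 0.00962), under the 2-fold minimum. It was the only 1 with an adjusted p under 0.05, which 6.05% of all genes had. List medians were -0.06, -0.08 and -0.06 in ESMG over squamous tissue, spheroids over ESMG and spheroids over squamous tissue, near the medians over all genes.

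**Figure D3:**
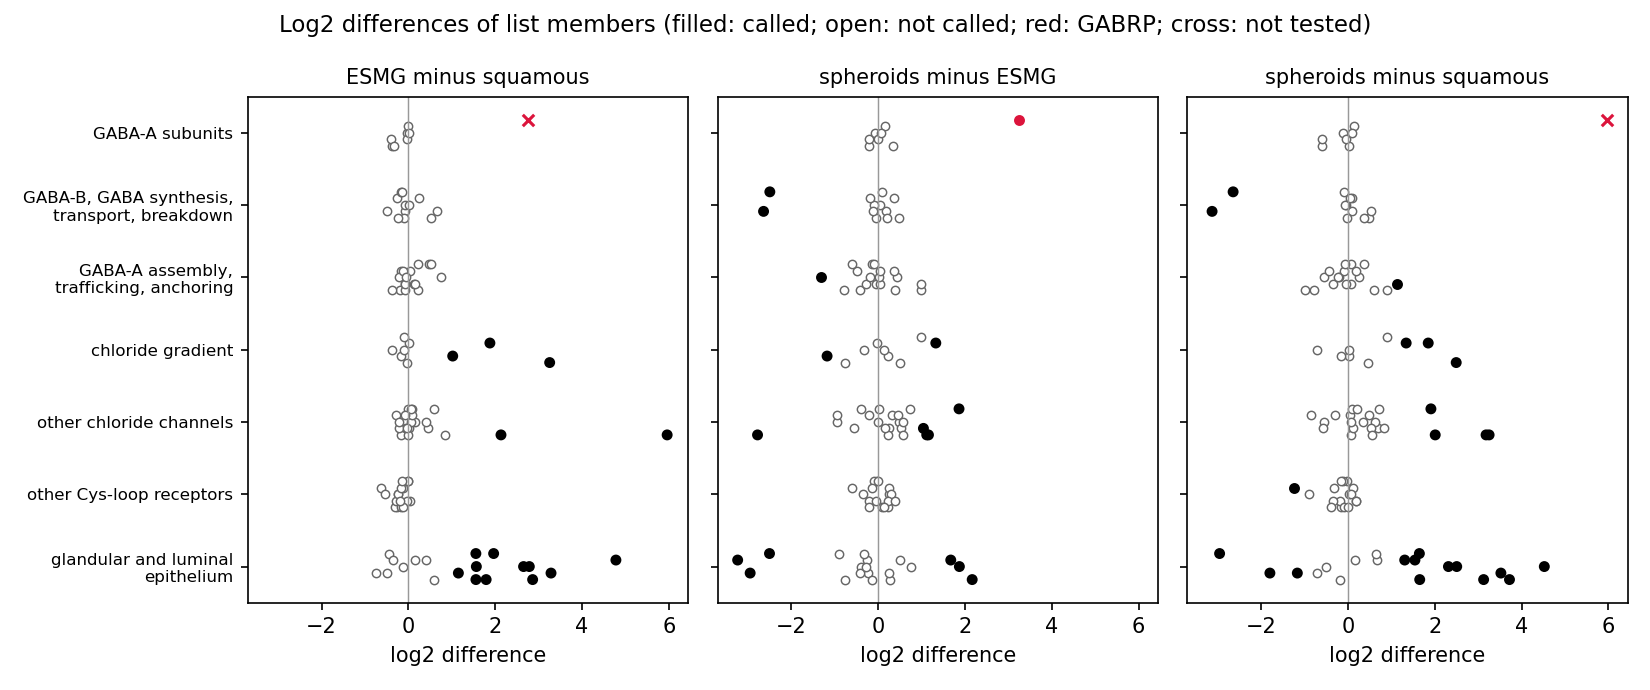
Log2 difference (horizontal axis) of every measured member of the 7 gene lists in the 3 comparisons; filled points are called, open points are not, and GABRP is red, drawn as a cross where it was chosen on the comparison and not tested. In the row of GABA-A subunits GABRP lies at 2.74, 3.23 and 5.98 and the other 7 between -0.61 and 0.34, and the chloride and glandular rows hold most of the other called genes.

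The genes that set the chloride gradient were read because it decides the direction of current through a GABA-A channel. Of 25 listed 9 were measured. In ESMG 3 were called higher than in squamous tissue, against 2.65% of all genes. In spheroids 3 were called higher than in squamous tissue (8.61% of all genes). Against ESMG 1 was called higher and 1 lower in spheroids (7.99% and 8.91% of all genes). The list median was -0.04 in ESMG over squamous tissue, 0.12 in spheroids over ESMG and 0.46 in spheroids over squamous tissue. SLC12A2, the cotransporter that loads cells with chloride, read 9.25, 8.24 and 8.71 in squamous tissue, 12.17, 12.42 and 11.39 in ESMG and 11.18, 11.04 and 11.46 in spheroids. Both gland groups lay above every squamous array: ESMG by 3.25 on average (SE 0.29, 9.54-fold; limma adjusted p = 7.05e-05) and spheroids by 2.49 (SE 0.29, 5.62-fold; limma adjusted p = 3.52e-05). Between spheroids and ESMG, which overlap, SLC12A2 differed by -0.76 (SE 0.29, limma adjusted p = 0.0513), where GABRP differed by 3.23.

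ATP1B1, a subunit of the sodium-potassium pump, was likewise higher in ESMG (log2 1.88, SE 0.23, limma adjusted p = 0.000536) and in spheroids (1.85, SE 0.23, limma adjusted p = 5.53e-05) than in squamous tissue. SLC12A5, the cotransporter that removes chloride from neurons, named outside the rule, read 5.35 to 5.81 over all 9 arrays and was not called in any comparison. STK39, a kinase that activates SLC12A2, read 10.72, 10.81 and 9.91 in ESMG and 9.19, 9.35 and 9.36 in spheroids and fell by 1.18 (SE 0.21, limma adjusted p = 0.000857). With the mean of its probe sets that fall was 0.88, under 2-fold. Its rise in ESMG over squamous tissue (1.02, SE 0.21, limma adjusted p = 0.0147) was lost without the ESMG array of pig 37 (0.90) or 39 (0.85), without the squamous array of pig 40 (0.96) and after quantile normalization (0.97). The sodium-bicarbonate cotransporter SLC4A4 was higher in spheroids than in ESMG by 1.33 (SE 0.29, limma adjusted p = 0.00324), and by 0.89 with array weights, under 2-fold.

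Among other chloride channels and their regulators, 22 of 34 were measured. In ESMG 2 were called higher than in squamous tissue (2.65% of all genes). In spheroids 4 were called higher and 1 lower than in ESMG (7.99% and 8.91%), and 4 higher than in squamous tissue (8.61%). The list median was 0.04, 0.28 and 0.41 in those comparisons. CFTR, the cyclic AMP-gated chloride and bicarbonate channel, climbed in the same order of groups as GABRP: 5.27, 4.75 and 4.97 in squamous tissue, 7.20, 7.29 and 6.90 in ESMG and 7.82, 8.07 and 8.87 in spheroids. The groups did not overlap. All 3 squamous arrays lay under their own lower quartile for CFTR, so no fold is given against them. The log2 difference was 2.13 in ESMG over squamous tissue (SE 0.25, limma adjusted p = 0.000418) and 1.12 in spheroids over ESMG (SE 0.25, 2.17-fold; limma adjusted p = 0.00334). The latter fell under 2-fold without the spheroid array of pig 3 (0.81) and with array weights (0.70).

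CLCA1, also a member of the mucous and serous list, took another course, at 13.76, 13.82 and 13.25 in ESMG and 10.88, 11.06 and 10.54 in spheroids, a fall of 2.78 (SE 0.61, 6.88-fold; limma adjusted p = 0.00302). LRRC8A, the essential subunit of the volume-regulated anion channel, did not separate the tissues (8.72, 8.57 and 8.65 in squamous tissue, 8.69, 8.50 and 8.89 in ESMG) and read 10.66, 10.46 and 10.55 in spheroids. It rose by 1.86 over ESMG (SE 0.14, 3.63-fold; limma adjusted p = 1.62e-06). LRRC8B, another subunit of that channel, rose by 1.16 over ESMG (SE 0.33, limma adjusted p = 0.0150), a call lost without the ESMG array of pig 40 (0.73) or the spheroid array of pig 1 (0.98).

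**Figure D4:**
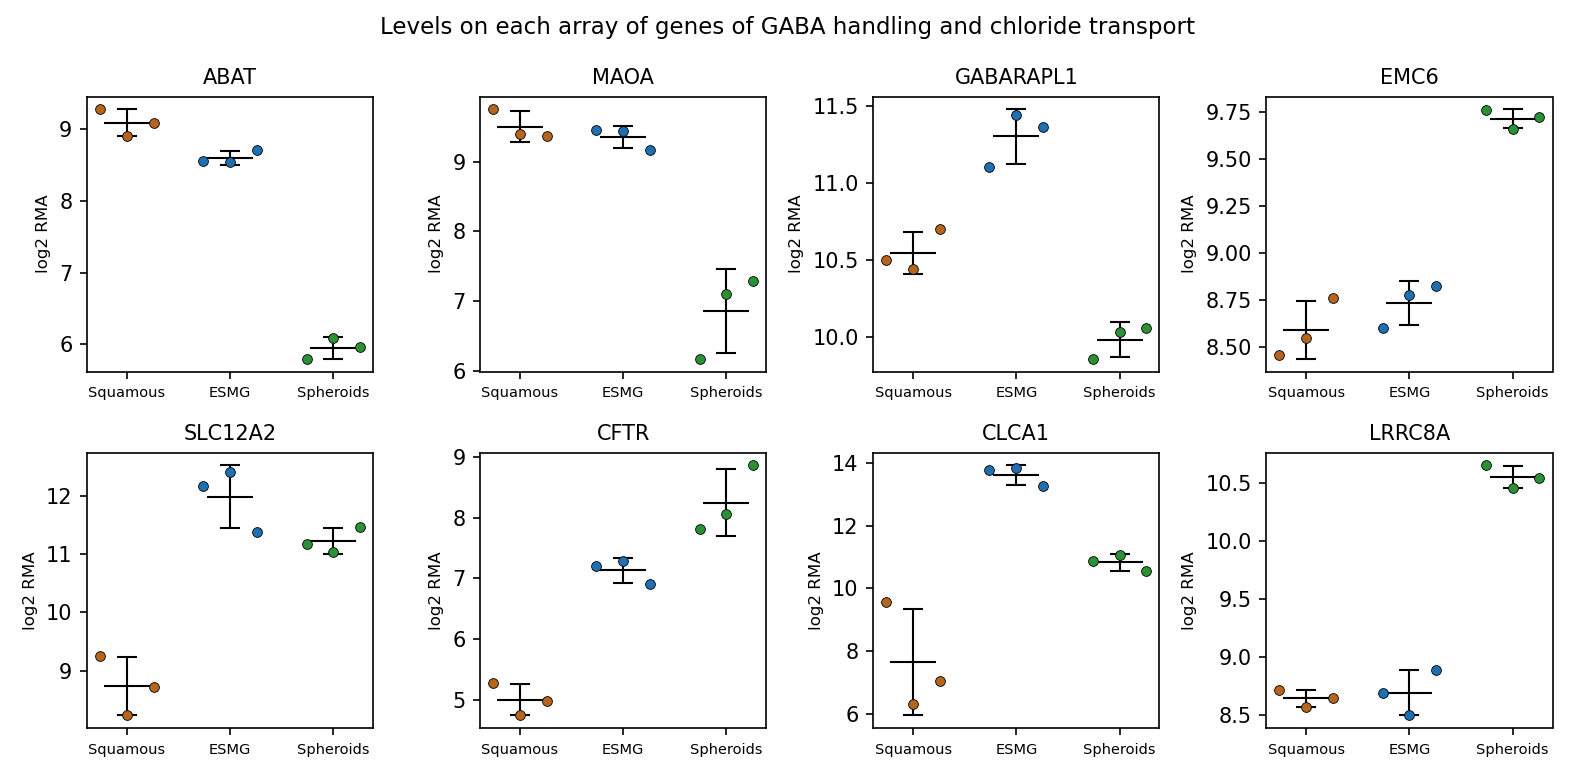
Levels (log2 RMA, vertical axes, each with its own range) of 8 genes on the 9 arrays by group; points are arrays, bars are means and whiskers 1 SD (n = 3). ABAT and MAOA are low in spheroids, SLC12A2 is high in both gland groups, CFTR climbs from squamous tissue (4.75 to 5.27) to spheroids (7.82 to 8.87), and LRRC8A is high in spheroids alone.

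Of 27 other genes of the Cys-loop family 17 were measured, at 2.84 to 7.5 over all arrays. Their median difference was -0.18 in ESMG over squamous tissue, -0.01 in spheroids over ESMG and -0.12 in spheroids over squamous tissue. By limma none was called in ESMG over squamous tissue or spheroids over ESMG, and 2 and 1 had an unadjusted p under 0.05. Of the 17, 1 was called lower in spheroids than in squamous tissue, against 8.05% of all genes. CHRNA7, the alpha-7 nicotinic receptor subunit, was called in the remaining comparison: 7.30, 7.49 and 7.50 in squamous tissue against 6.07, 6.63 and 5.85 in spheroids, a fall of 1.24 (SE 0.18, 2.37-fold; limma adjusted p = 0.000233).

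Genes of glandular and luminal progenitor epithelium, the setting in which GABRP is best known, separated the tissues. Of 26 listed 19 were measured. In ESMG 11 were called higher than in squamous tissue and none lower, against 2.65% and 0.409% of all genes. The list median there was 1.55. In spheroids 3 rose and 3 fell against ESMG (7.99% and 8.91% of all genes), at a median of -0.25. Against squamous tissue 10 rose and 3 fell (8.61% and 8.05%). VTCN1, an immune-inhibitory surface protein of ductal epithelium, read 6.04, 5.68 and 5.73 in squamous tissue, 7.71, 7.28 and 7.12 in ESMG and 9.02, 9.60 and 9.99 in spheroids. It rose by 2.16 from ESMG to spheroids (SE 0.24, 4.48-fold; limma adjusted p = 2.65e-05).

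The keratin KRT19 of simple epithelium read 8.80, 8.15 and 8.31 in squamous tissue, 11.50, 10.98 and 10.73 in ESMG and 12.74, 12.83 and 13.26 in spheroids. It rose by 1.87 from ESMG to spheroids (SE 0.23, 3.65-fold; limma adjusted p = 6.39e-05). KRT18, another keratin of simple epithelium, was 3.29 higher in ESMG than squamous tissue (SE 0.25). It had a difference of 0.24 between spheroids and ESMG (SE 0.25, limma adjusted p = 0.50). PIGR, the carrier of secreted antibodies and also a mucous and serous marker here, fell by 3.24 from ESMG to spheroids (SE 0.30, 9.45-fold; limma adjusted p = 8.41e-06). The luminal transcription factor ELF5 fell by 2.51 (SE 0.19), and the receptor KIT fell by 2.95 (SE 0.26), both named after their values were seen. ELF5 was not higher in ESMG than in squamous tissue (-0.45, SE 0.19, limma adjusted p = 0.208).

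The genes whose levels were most like those of GABRP were described by Pearson correlation over the 9 arrays, without a test, among 11077 genes, leaving out those known by a locus number alone. The 9 points form 3 groups, so the measure mainly reflects the group means, and 68 genes (0.614%) reached 0.95. The 10 highest, from 0.984 to 0.974, were SPP1, SMAP2, PRKAB1, PLAT, ECE1, FAM177A1, CRIM1, CD44, VTCN1 and KRT19. SPP1 is the secreted matrix protein osteopontin, PLAT the tissue plasminogen activator, ECE1 an endothelin-converting enzyme and CD44 a hyaluronan receptor. By Spearman correlation 3 of the 10 (PLAT, FAM177A1 and CD44) were again among the highest 10, and over the 6 tissue arrays alone none was.

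The size of the steps was compared by another measure. After each gene was centred on its own mean, the smallest root mean square differences from GABRP were 0.521 for SPP1, 0.620 for the chemokine CXCL8, 0.804 for KRT19, 0.824 for the metalloproteinase MMP12 and 0.830 for the pantetheinase VNN2. SPP1 read 8.07, 7.04 and 7.40 in squamous tissue, 9.02, 9.70 and 9.89 in ESMG and 12.67, 12.97 and 12.75 in spheroids. It rose by 3.26 from ESMG to spheroids (SE 0.27, 9.57-fold). CXCL8 read 7.66, 5.55 and 6.63 in squamous tissue, with its high and low arrays in the same pigs as GABRP, 8.98, 10.24 and 10.60 in ESMG and 12.54, 13.00 and 11.95 in spheroids. It rose by 2.55 from ESMG to spheroids (SE 0.51, 5.88-fold). SPP1 and CXCL8 were picked for their likeness to GABRP on these same arrays, so their rises are a description and no p is given.

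**Figure D5:**
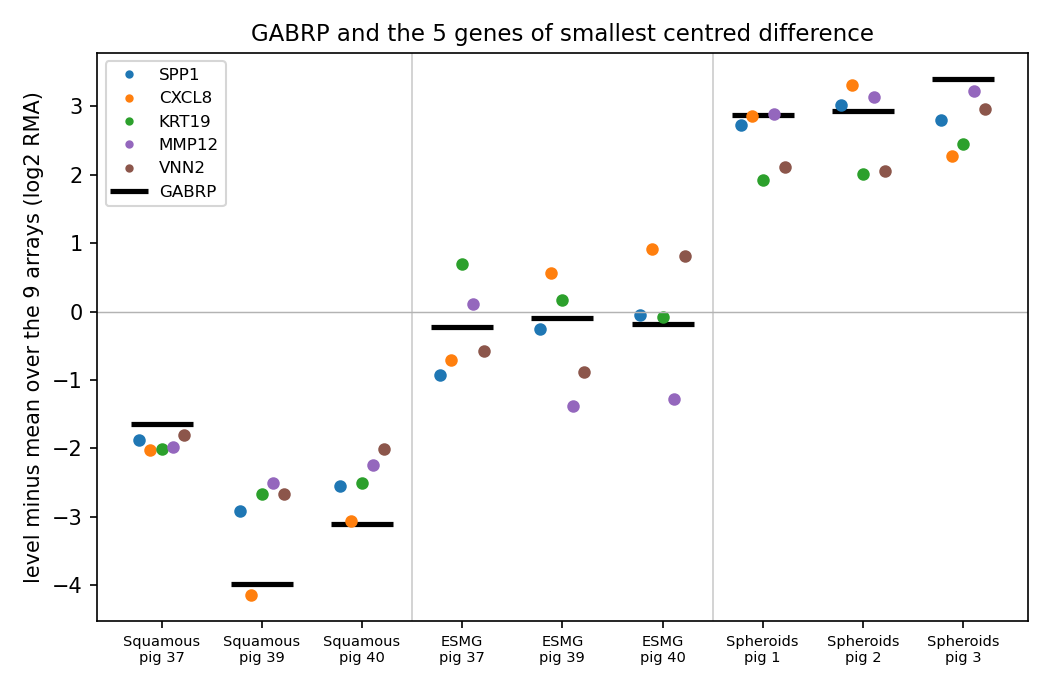
Level minus the gene's own mean over the 9 arrays (log2 RMA, vertical axis) on each array for GABRP (black bars) and the 5 genes with the smallest root mean square difference from it (points). All 6 are below their mean on squamous arrays and above it on spheroid arrays, and CXCL8 lies nearest to GABRP on the squamous arrays of pigs 39 and 40.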

How the data were processed

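The members and lists were chosen with earlier results of these data known. Per the labels, the authors summarised the arrays by RMA per gene in Affymetrix Expression Console and deposited log2 values; Transcriptome Analysis Console 3.0 is named without a role, per the submitters' processing notes. RMA makes array distributions alike, which removes array-wide differences in RNA amount. No label used here names a genome build for the probe sets, and coordinates are left out.

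Of 27558 probe sets 13157 had 1 gene symbol in the platform annotation, 523 several and 13878 none; 12841 were matched to the RefSeq gene table to update symbols. The probe set with the highest mean stood for a gene.

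A group-means model over all 9 arrays was fitted with limma 3.58.1 in R 4.3.3 (6 residual degrees of freedom) and checked on simulated data. The simulation gave each gene the same spread in all groups, which GABRP did not have, so it does not check the p-value of GABRP. P-values were adjusted by Benjamini-Hochberg over 12217 genes and measure the spread between biological replicates, per the design text. Named genes were GABRP, all measured GABA-A subunits, the called members with the largest differences of each other list (at most 4), the 10 highest correlations and the 5 smallest centred differences. Some markers of the cell type lists were named besides, and those of nerve and glia were the called ones. The neighbours of GABRP were named by position. Other genes are marked.

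Same-pig tissue arrays come from 1 animal by their titles; deviations from the group means correlated at 0.422, -0.147 and -0.168 for pigs 37, 39 and 40. Alternatives were other normalizations, filters, probe-set rules, variance models, array weights, pig as a block and leaving out each array.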

Additional observations from a re-analysis of the deposited data

How the results depend on the processing

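The log2 difference of GABRP between spheroids and ESMG stayed called in every setting that gave it a value (20 were run, of which pig as a fixed block holds no spheroids). Over them it ranged from 3.03 (cyclic loess) to 3.33 (without the spheroid array of pig 1). Against squamous tissue it moved by more than the pooled SD of 0.71 with array weights only, to 1.93 for ESMG and 5.01 for spheroids. With pig as a fixed replicate block the paired difference between ESMG and squamous tissue was 2.74 (SE 0.38), with 397 genes called, and no called gene of the lists or the likeness table lost its call. As a random replicate block (consensus correlation -0.149) pig ended the call of MMP12 in that comparison and no other among the genes checked. Testing all probe sets, named or not, gave 604, 4153 and 4129 calls in ESMG over squamous tissue, spheroids over ESMG and spheroids over squamous tissue, against 374, 2065 and 2035 genes, since more features were tested. Leaving out single arrays gave 276 to 569 calls in the first comparison, the most without the ESMG array of pig 40. Cyclic loess moved the split of higher and lower calls from 976 and 1089 to 698 and 1320 in spheroids over ESMG, and from 1052 and 983 to 810 and 1137 in spheroids over squamous tissue. Of 79 called differences in other genes of the lists and the likeness table, 18 lost their call in at least 1 setting and 0 changed sign. Of 42 list counts 9 moved by over 1.5 times in some setting; the cause was not tested. PRKAB1 lost its call in spheroids over squamous tissue in 7 settings.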

Other observations

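The genes that lie beside GABRP in the RefSeq order of the pig assembly Sscrofa11.1 were read next. RANBP17, a nuclear transport receptor, read 7.25, 6.25 and 7.11 in squamous tissue, 7.87, 7.71 and 7.28 in ESMG and 7.28, 6.85 and 7.47 in spheroids, and was called in no comparison. KCNIP1, a potassium channel partner on the other side, read between 4.32 and 4.75 on all 9 arrays. Beyond them, TLX3 was not called. KCNMB1, a potassium channel subunit of smooth muscle, was 2.07 lower in spheroids than in squamous tissue (SE 0.26, limma adjusted p = 6.16e-05). KCNMB1 was also 1.14 lower in ESMG than in squamous tissue (SE 0.26, limma adjusted p = 0.0228). LCP2, a signalling adaptor of leukocytes, was 1.61 lower in spheroids than in ESMG (SE 0.25, limma adjusted p = 0.000344). Smooth muscle and leukocyte markers moved in the same arrays, and the part of these cell types in the differences of KCNMB1 and LCP2 was not tested. Besides KCNMB1, itself on the smooth muscle list, 9 of 9 measured smooth muscle markers were called lower in spheroids than in squamous tissue. Of 11 leukocyte markers, which do not include LCP2, 6 were called lower in spheroids than in ESMG. Over all genes 8.05% and 8.91% were called lower in those comparisons. These neighbours were chosen by position after the levels of GABRP were known.

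Of 10 measured nerve and glia markers, none was called between ESMG and squamous tissue (limma; unadjusted p under 0.05 for 1 higher and 3 lower). In spheroids UCHL1, a ubiquitin hydrolase abundant in neurons, was called higher than in ESMG (1.12, SE 0.18, limma adjusted p = 0.000331) and SCN7A, a sodium channel of glia, lower (-1.50, SE 0.23, limma adjusted p = 0.000328). Both were called in the same directions against squamous tissue, as was CDH19, a cadherin of glia, lower (-1.46, SE 0.18, limma adjusted p = 5.64e-05). The mean level of the list, in which these opposite differences are averaged, was 5.79 to 5.94 in squamous tissue, 5.62 to 5.68 in ESMG and 5.39 to 5.67 in spheroids.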
